A study of Homo sapiens with 12 samples.

Results

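Transcripts of 10 genes of the leukotriene pathway were followed in 4 populations of malignant B-cells. The genes were chosen by symbol for their place in the pathway, and they cover arachidonate release (*PLA2G4A*), 5-lipoxygenase (*ALOX5*) and its activating protein (*ALOX5AP*), LTA4 hydrolysis (*LTA4H*), the LTC4 steps (*LTC4S*, *MGST2*, *GGT1*) and the leukotriene receptors (*LTB4R*, *LTB4R2*, *CYSLTR1*). Of the 10, 9 were found among the 22441 genes of the MEC1 table and the 17144 genes of the JVM2 table, and *LTC4S* was not analysed here.

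Total RNA was sequenced in 3 biological replicates per population after depletion of ribosomal RNA, to ask how the level of the glucuronosyltransferase UGT2B17 bears on gene expression in leukemic cells. Both lines are established human cell lines grown from B-cell neoplasms. MEC1-2B17 and JVM2-2B17 cells carried the UGT2B17 coding sequence in a pcDNA6 expression vector and were grown in blasticidin. JVM2-CTRL cells carried the empty pcDNA6 vector, also in blasticidin. MEC1-CTRL cells are labelled as stably repressed for UGT2B17 by an shRNA and were grown in puromycin, so that in MEC1 the arms differed by construct and antibiotic as well as by UGT2B17. Whether a population was a pool or a single clone is not given in the sources used here, and a trait of the cells that survived selection cannot be told apart from the construct.

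The libraries held between 31762649 and 37744991 counts in MEC1 and between 8809179 and 11231330 in JVM2, and the biological coefficient of variation estimated by edgeR was 4.22% and 6.92%. Replicates differed by more than counting error, and MEC1-CTRL replicate 3 and JVM2-2B17 replicate 2 stood apart from their groups, although leaving out either one changed no call of a member. Levels are given in CPM, counts scaled to a common library size, after a TMM correction of that size for a few dominant genes. *UGT2B17* itself was 20.1 to 22.7 CPM in MEC1-2B17 libraries against 10.4 to 11.8 in MEC1-CTRL, and 35.3 to 45.3 CPM in JVM2-2B17 against 26.2 to 29.8 in JVM2-CTRL, and neither pair of arms overlapped. The B cell markers *MS4A1*, *CD79A*, *CD79B*, *PAX5* and *CD22* were all 5 present in both lines. Their summed level was 2042 to 2110 CPM in MEC1-CTRL and 1825 to 1904 CPM in MEC1-2B17, and 1193 to 1232 CPM in JVM2-CTRL and 1152 to 1370 CPM in JVM2-2B17. Single markers moved both ways. In MEC1 *CD22* and *CD79A* were higher with UGT2B17 (log2 fold changes of 0.36 and 0.28) and *MS4A1*, *PAX5* and *CD79B* lower (-0.58, -0.17 and -0.12), all called, while in JVM2 *MS4A1* and *CD22* were higher (0.40 and 0.38) and *CD79A* lower (-0.39), and *PAX5* and *CD79B* were not called (edgeR adjusted *P* = 0.40 and 0.36). Markers of monocytes and neutrophils, the cells best known for leukotriene synthesis, had 3 of 8 genes listed in MEC1 and 2 of 8 in JVM2 and summed to at most 1.70 CPM in any library, without *MPO*, *ELANE* or *S100A8*, and those of mast cells, basophils and eosinophils to at most 0.153 CPM. Of the 6 T and NK cell markers, 5 were listed in MEC1. They summed to 19.8 to 22.4 CPM in MEC1-CTRL and 5.98 to 6.78 CPM in MEC1-2B17. Most of this was *GNLY*, the cytotoxic granule protein granulysin, at a mean of 19.6 and 4.92 CPM, with *NKG7* at 0.883 and 1.19 CPM. In JVM2 only 1 of the 6 was listed, *NKG7*, at 0.793 to 2.16 CPM. The part of these shifts in the results below was not tested.

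Leukotrienes are lipid mediators made from arachidonic acid. Cytosolic phospholipase A2 frees the fatty acid from membranes, the activating protein FLAP presents it to 5-lipoxygenase, and 5-lipoxygenase turns it into the unstable epoxide LTA4. LTA4 is then hydrolysed to LTB4, a chemoattractant of leukocytes, or conjugated with glutathione to LTC4, the parent of the cysteinyl leukotrienes that contract airways and make vessels leak. B-cells are known to carry 5-lipoxygenase, and LTB4 acts on them through its receptors.

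*ALOX5* was lower in UGT2B17 cells of both lines, while *ALOX5AP* moved in opposite directions and *LTA4H* and *MGST2* rose in both. In MEC1-2B17 compared to MEC1-CTRL, 7 of the 9 members passed an adjusted *P* of 0.05 in edgeR's quasi-likelihood test, against 41.7% of the 16581 genes tested. *LTA4H*, *MGST2*, *GGT1* and *PLA2G4A* were higher (4 of 9, against 20.0% of all genes) and *ALOX5*, *ALOX5AP* and *CYSLTR1* were lower (3 of 9, against 21.6%). In JVM2, 4 of 9 passed, against 29.3% of the 13021 genes tested, with *ALOX5AP*, *LTA4H* and *MGST2* higher (3 of 9, against 14.1%) and *ALOX5* lower (1 of 9, against 15.3%).

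The arms did not overlap for 7 of 9 members in MEC1, where this held for 50.1% of all genes, and for 5 of 9 in JVM2, where it held for 45.2%. The median log2 fold change of the 9 members was 0.090 in MEC1 and -0.071 in JVM2, beside 0.0026 and 0.00012 over all genes tested. *ALOX5*, *LTA4H* and *MGST2* passed in both lines with the same sign (3 of 9 members, against 8.37% of the 12243 genes tested in both) and *ALOX5AP* in both with opposite signs (1 of 9, against 7.43%). *ALOX5*, *LTA4H* and *MGST2* are also among genes the study selected from these libraries, so their shared direction is not independent evidence. The difference between the lines, tested as an interaction over all 12 libraries, passed for 4 of 9 members and for 32.0% of the 15130 genes tested. RNA of pooled cells cannot tell fewer expressing cells from less RNA per cell, for any of these members.

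**Figure D1:**
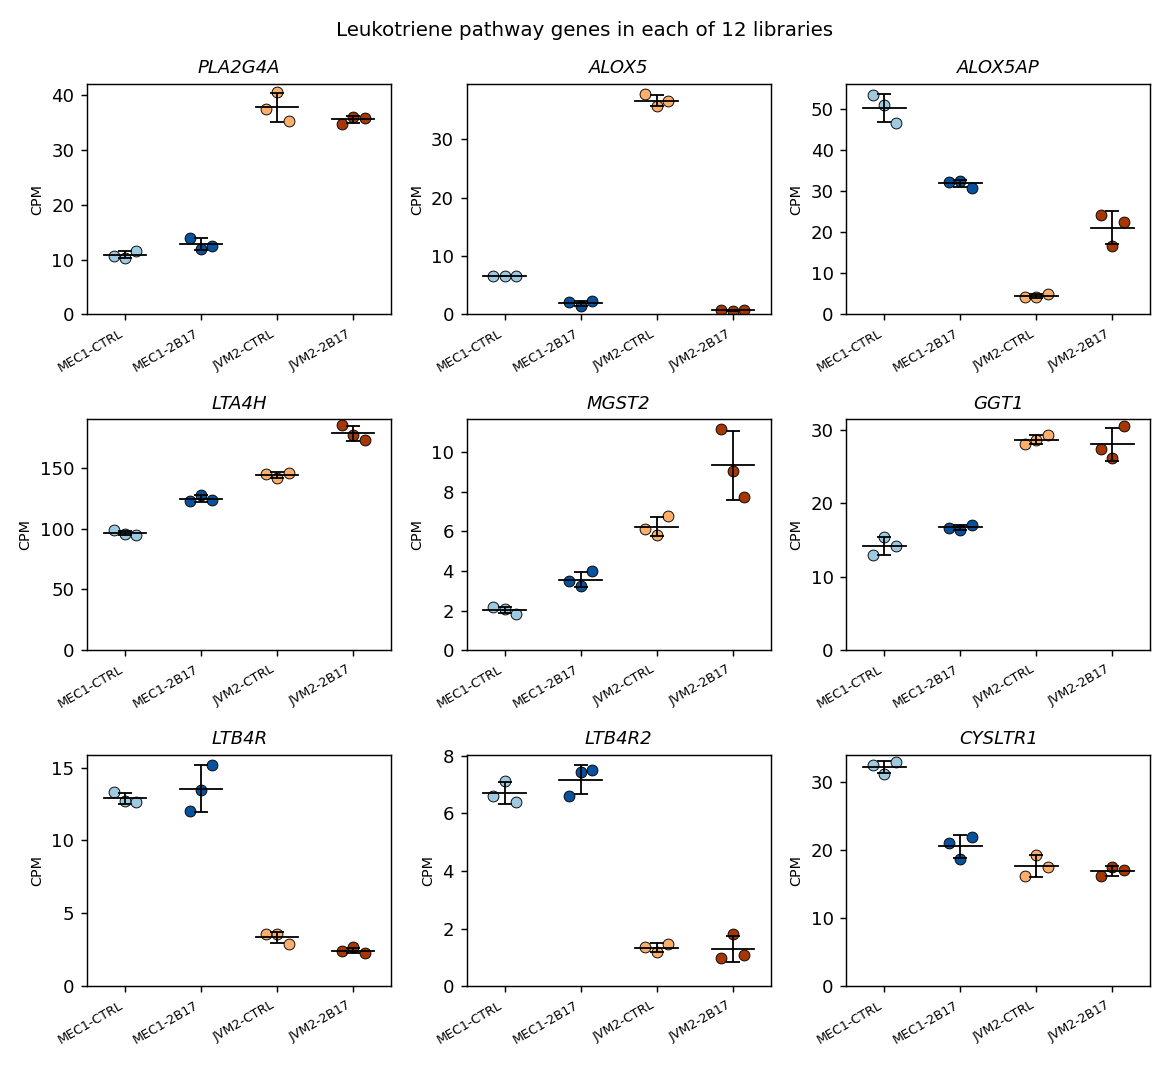
Level of each of the 9 members, in CPM on a linear axis from 0 that differs between panels, in each of the 3 libraries of the 4 populations (points), with the mean as a line and the SD as error bars. *ALOX5* is below its control in both UGT2B17 populations, from 36.7 to 0.696 CPM in JVM2 and from 6.63 to 1.89 CPM in MEC1, whereas *ALOX5AP* falls in MEC1 and rises in JVM2.

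*PLA2G4A* (chr1:186828949-186988981, GRCh38, plus strand) encodes the cytosolic phospholipase that releases arachidonic acid. In MEC1-CTRL its level was 10.7, 10.3 and 11.6 CPM in replicates 1, 2 and 3, and in MEC1-2B17 it was 13.98, 11.9 and 12.4 CPM. The highest control lay just under the lowest UGT2B17 library, and the rise was 0.23 ± 0.077 on the log2 scale (SE, n = 3 per arm, edgeR quasi-likelihood adjusted *P* = 0.024). That call was lost without MEC1-CTRL replicate 1 (adjusted *P* = 0.068), MEC1-CTRL replicate 2 (0.109) or MEC1-2B17 replicate 1 (0.142), and also in DESeq2 (0.0505). In JVM2 the levels were 35.2 to 40.5 CPM in controls and 34.8 to 36.0 CPM in UGT2B17 cells, which overlapped, and the 95% interval of the log2 fold change ran from -0.27 to 0.080 (adjusted *P* = 0.41). The difference between the lines, MEC1 minus JVM2, was 0.32 ± 0.109 on the log2 scale (adjusted *P* = 0.027). This difference lost its call without MEC1-CTRL replicate 1 or 2, MEC1-2B17 replicate 1, JVM2-CTRL replicate 2 or JVM2-2B17 replicate 1. The adjusted *P* was then 0.055 to 0.093.

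*ALOX5* (chr10:45374176-45446119, plus strand) encodes 5-lipoxygenase, which catalyses both steps from arachidonic acid to LTA4. In MEC1-CTRL the 3 libraries held 264, 240 and 230 counts, or 6.64, 6.65 and 6.60 CPM. In MEC1-2B17 they held 73, 47 and 74 counts, or 2.07, 1.38 and 2.24 CPM. Every UGT2B17 library was thus far under every control, and the fall was 3.51-fold (log2 fold change -1.81 ± 0.133, SE, n = 3 per arm, adjusted *P* = 2.2e-09).

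In JVM2-CTRL the *ALOX5* counts were 357, 362 and 325, or 37.7, 35.7 and 36.6 CPM, the highest level of the gene in the study. In JVM2-2B17 only 8, 5 and 6 counts remained, or 0.771, 0.604 and 0.715 CPM. The arms were separated by more than any other member's, and *ALOX5* was 51.4-fold lower in JVM2-2B17 (log2 fold change -5.68 ± 0.154, adjusted *P* = 1.1e-10). With so few counts left, the size of the fold rests on a small number of reads. Its 95% interval ran from -6.02 to -5.35 on the log2 scale. That is narrower than counting error on 8, 5 and 6 counts allows, so the interval understates the uncertainty. The log2 fold change was 3.89 ± 0.273 smaller in size in MEC1 than in JVM2 (adjusted *P* = 8.7e-10), and this SE is too small for the same reason.

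The order of *ALOX5* levels was therefore JVM2-CTRL (36.7 ± 1.01 CPM, mean ± SD, n = 3), MEC1-CTRL (6.63 ± 0.0307), MEC1-2B17 (1.89 ± 0.453) and JVM2-2B17 (0.696 ± 0.0851). No neighbours in this order overlapped. The line with the most *ALOX5* at the start ended with the least. Line, depth, table, control construct and sequencing site, which is not given per library, cannot be told apart between the lines, so levels compared across lines are a description without a test.

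The genes whose log2 CPM followed that of *ALOX5* most closely over the 12 libraries, among 10856 genes compared, were *SCN3A*, a sodium channel subunit (Pearson r = 0.993), *MICAL2*, an oxidase acting on actin (0.984), and the interferon-induced gene *IFIT3* (0.974). These libraries fall into 4 populations and share their depth by line, so the correlations are descriptions. *SCN3A* held 1539 to 1717 counts in JVM2-CTRL and 0 to 1 in JVM2-2B17, and 192 to 313 counts in MEC1-CTRL and 33 to 36 in MEC1-2B17. For *SCN3A* the order of the populations was thus that of *ALOX5*, with an even lower floor. The other 2 genes fell less than *ALOX5*, whose log2 fold changes were -1.81 in MEC1 and -5.68 in JVM2. Those of *MICAL2* were -0.98 and -2.39, and those of *IFIT3* -0.26 and -2.04.

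*ALOX5AP* (chr13:30713478-30764426, plus strand) encodes FLAP, the membrane protein that hands arachidonic acid to 5-lipoxygenase. Its level in MEC1-CTRL was 53.4, 51.0 and 46.6 CPM, and in MEC1-2B17 it was 32.3, 32.7 and 30.9 CPM. All UGT2B17 libraries were below all controls, and *ALOX5AP* was 1.58-fold lower (log2 fold change -0.66 ± 0.052, adjusted *P* = 6.0e-09). In JVM2-CTRL the counts were only 40, 43 and 44, or 4.23, 4.24 and 4.95 CPM, and in JVM2-2B17 they were 252, 139 and 189, or 24.3, 16.8 and 22.5 CPM.

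Here the direction was the opposite one. The lowest JVM2-2B17 library exceeded the highest control by a wide margin, and *ALOX5AP* was 4.75-fold higher (log2 fold change 2.25 ± 0.168, adjusted *P* = 8.8e-07). The difference between the lines was -2.91 ± 0.167 on the log2 scale (adjusted *P* = 3.7e-11). MEC1-CTRL had the highest mean level (50.3 ± 3.47 CPM, SD), followed by MEC1-2B17 (31.9 ± 0.935), JVM2-2B17 (21.2 ± 3.92) and JVM2-CTRL (4.47 ± 0.414), and no neighbours overlapped. The 2 lines, 11.3-fold apart as controls, were thus 1.51-fold apart with UGT2B17 overexpressed.

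Sequence upstream of the RefSeq start (GRCh38.p14) is shown for 3 members with contrasting behaviour, *ALOX5AP*, which changed in opposite directions in the lines, *CYSLTR1*, which fell beside it in MEC1 and was not called in JVM2, and *LTA4H*, which rose in both. They lie at chr13:30713235-30713484 on the plus strand, chrX:78327692-78327861 on the minus strand and chr12:96035642-96035837 on the minus strand, and bases inside an annotated exon were trimmed from the last 2, while the stretch of *ALOX5AP* ends with 7 of them. Capitals mark GAGGAA on either strand, letters that include GGAA, the core bound by ETS-family factors such as PU.1. Other GGAA letters in the stretches are not marked. RefSeq entries were matched for 8 of the 10 members, and those of *ALOX5* and *MGST2* were not used here.
ALOX5AP: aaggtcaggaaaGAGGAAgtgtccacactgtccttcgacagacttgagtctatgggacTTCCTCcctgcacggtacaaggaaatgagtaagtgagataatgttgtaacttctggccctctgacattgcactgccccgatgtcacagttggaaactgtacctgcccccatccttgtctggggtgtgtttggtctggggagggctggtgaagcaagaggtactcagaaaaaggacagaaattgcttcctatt
CYSLTR1: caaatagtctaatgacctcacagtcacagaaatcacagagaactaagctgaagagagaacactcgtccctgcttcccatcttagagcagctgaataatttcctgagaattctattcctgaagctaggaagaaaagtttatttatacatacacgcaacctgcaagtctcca
LTA4H: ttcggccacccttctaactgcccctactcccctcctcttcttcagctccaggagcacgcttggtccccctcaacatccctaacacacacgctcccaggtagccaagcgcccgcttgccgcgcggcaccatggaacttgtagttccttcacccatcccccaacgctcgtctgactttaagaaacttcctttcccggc

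The *ALOX5AP* window of 250 bases held 2 matches to GAGGAA, and 3.49% of the 35116 RefSeq windows of that length held as many. Before trimming, the *CYSLTR1* window held 1 match, inside its first annotated exon, and that of *LTA4H* held 0, while 23.6% of all windows held at least 1. GAGGAA was picked for display after the matches had been seen, together with those to 3 other motifs, none of which contains another. The GC box GGGCGG stood in 42.6% of all windows on either strand, the CCAAT box in 32%, and the letters TATAAA in 10.7%. In these 3 windows the only match to any of the 3 was 1 to TATAAA in that of *CYSLTR1*, on the strand opposite to the gene. A match to such letters is not evidence of binding.

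*LTA4H* (chr12:96000753-96043520, minus strand) encodes the hydrolase that makes LTB4. Its level was 98.5, 95.7 and 94.7 CPM in MEC1-CTRL and 123, 128 and 123 CPM in MEC1-2B17. In JVM2 it was 144, 141 and 146 CPM in controls and 185, 177 and 173 CPM with UGT2B17. In both lines the arms were apart and the spread within an arm was small.

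The rise of *LTA4H* was 1.29-fold in MEC1 (log2 fold change 0.37 ± 0.032, adjusted *P* = 2.9e-08) and 1.24-fold in JVM2 (0.31 ± 0.056, adjusted *P* = 0.0014). The lines differed by 0.064 on the log2 scale, with a 95% interval from -0.075 to 0.20 (adjusted *P* = 0.50). Both JVM2 populations lay above both MEC1 populations, and no neighbours in the order overlapped. Antisense noncoding genes cover up to 10.9% of its exon bases, and whether the counting used strand is not given in the sources used here.

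*MGST2* (chr4:139665768-139740745, plus strand) encodes a microsomal glutathione transferase able to make LTC4 outside blood cells that use LTC4 synthase. It rose from 2.16, 2.08 and 1.84 CPM in MEC1-CTRL to 3.48, 3.23 and 3.99 CPM in MEC1-2B17. The arms did not overlap, and the rise was 1.75-fold (log2 fold change 0.81 ± 0.133, adjusted *P* = 6.9e-05). In JVM2 its level was 6.13, 5.82 and 6.75 CPM in controls and 11.2, 9.05 and 7.74 CPM with UGT2B17.

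The 3 JVM2-2B17 libraries were again all above the controls but were spread more widely, and the rise of *MGST2* was 1.51-fold (0.59 ± 0.161, adjusted *P* = 0.015). It did not pass without JVM2-CTRL replicate 1 (adjusted *P* = 0.052), JVM2-CTRL replicate 2 (0.067) or JVM2-2B17 replicate 1 (0.081). The difference between the lines was 0.21, with a 95% interval from -0.23 to 0.65 on the log2 scale (adjusted *P* = 0.48). An exon stretch of 7.94% of *MGST2* is shared with *MAML3* on the opposite strand.

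*GGT1* (chr22:24594811-24629005, plus strand) encodes the gamma-glutamyltransferase that turns LTC4 into LTD4. Its level was 12.9, 15.4 and 14.1 CPM in MEC1-CTRL and 16.6, 16.4 and 17.1 CPM in MEC1-2B17. The UGT2B17 libraries all exceeded the controls, by 1.18-fold (log2 fold change 0.24 ± 0.067, adjusted *P* = 0.0080), though the call was lost without MEC1-CTRL replicate 1 (adjusted *P* = 0.063). In JVM2 the arms overlapped, at 27.99 to 29.2 and 26.2 to 30.5 CPM, and the 95% interval of the log2 fold change was -0.23 to 0.16 (adjusted *P* = 0.80). The lines differed by 0.28 ± 0.108 on the log2 scale, which missed the threshold (adjusted *P* = 0.055). *GGT1* values are uncertain, since 87.1% of the 50-base words of its main transcript also occur in transcripts of other genes, among them a readthrough gene and GGT pseudogenes.

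*LTB4R* (chr14:24311450-24318036, plus strand) encodes the high-affinity LTB4 receptor and *LTB4R2* (chr14:24305734-24312053, plus strand) its low-affinity neighbour. *LTB4R* held 530, 458 and 441 counts in MEC1-CTRL and 424, 459 and 503 in MEC1-2B17. The ranges overlapped, with a log2 fold change of 0.065 (95% interval -0.097 to 0.23, adjusted *P* = 0.54). In JVM2 it was much lower, with 34, 36 and 26 counts in controls and 25, 22 and 19 with UGT2B17, or 3.59, 3.55 and 2.92 against 2.41, 2.66 and 2.26 CPM.

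The JVM2 arms of *LTB4R* did not overlap, but its log2 fold change of -0.47 ± 0.209 did not pass (adjusted *P* = 0.11). That SE is smaller than counting error allows at its low counts. The lines differed by 0.54 ± 0.241 (adjusted *P* = 0.096). *LTB4R2* held 223 to 263 counts in MEC1 libraries and 9 to 15 in JVM2 libraries. Its arms overlapped in both lines, with log2 fold changes of 0.090 (95% interval -0.094 to 0.27, adjusted *P* = 0.45) and -0.088 (-0.79 to 0.62, adjusted *P* = 0.87). The receptor genes share 9.68% and 21.3% of their 50-base words with each other. Exons of *CIDEB* on the opposite strand cover 39.5% of *LTB4R2*, and those of *NOP9* on the same strand cover 9.4%. Reads in such stretches may have been lost or assigned to another gene, which was not checked.

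*CYSLTR1* (chrX:78271468-78327691, minus strand) encodes the receptor for LTD4 that is blocked by antiasthmatic drugs such as montelukast. In MEC1-CTRL it was 32.5, 31.2 and 32.9 CPM, and in MEC1-2B17 it was 21.1, 18.6 and 21.9 CPM. The arms were clearly apart, and *CYSLTR1* was 1.57-fold lower (log2 fold change -0.65 ± 0.059, adjusted *P* = 3.6e-08), a size close to that of the *ALOX5AP* fall in the same cells. In JVM2 the ranges of 16.2 to 19.3 and 16.2 to 17.5 CPM overlapped, and the 95% interval of the log2 fold change was -0.30 to 0.16 (adjusted *P* = 0.65). The lines differed by -0.58 ± 0.119 on the log2 scale (adjusted *P* = 8.0e-04). MEC1-CTRL stood apart at the top of the order, and the ranges of the 3 remaining populations ran into each other step by step.

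**Figure D2:**
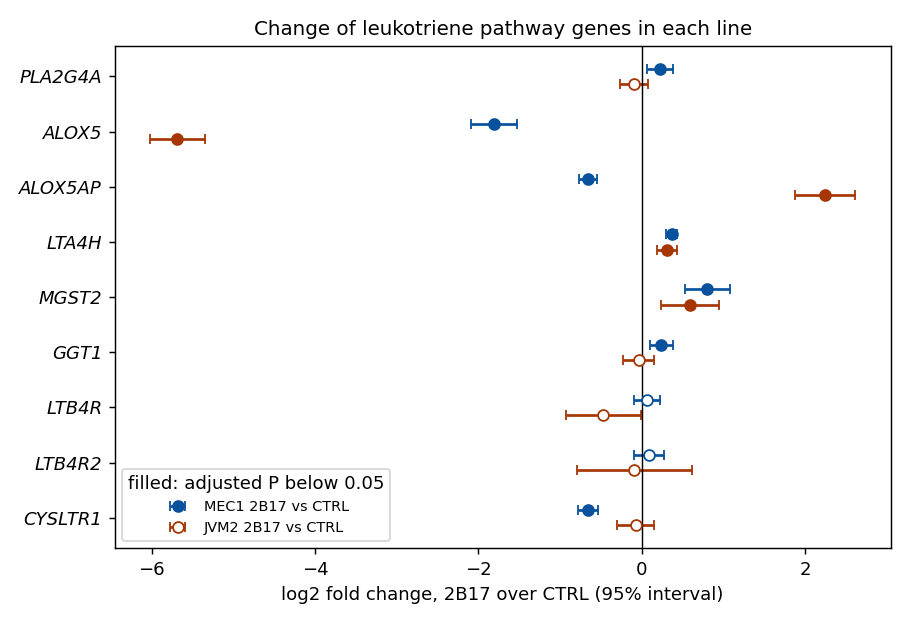
Log2 fold change of 2B17 over CTRL for each member in MEC1 and JVM2, with its 95% interval from edgeR's quasi-likelihood fit (n = 3 per arm) as a bar and filled points for an adjusted *P* below 0.05. The *ALOX5* points lie at -1.81 and -5.68 and those of *ALOX5AP* at -0.66 and 2.25, while *LTA4H* and *MGST2* lie to the right of 0 in both lines. The JVM2 bar of *ALOX5* is narrower than counting error allows at its low counts.

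Per kilobase of exon, a scale on which genes can be compared, *ALOX5AP* was the highest member in both MEC1 populations (29.95 ± 2.07 and 19.0 ± 0.556 CPM per kilobase, mean ± SD, n = 3) and *LTA4H* the next (13.0 ± 0.266 and 16.8 ± 0.380). In JVM2-CTRL *LTA4H* was first (19.4 ± 0.317), *PLA2G4A* next (13.1 ± 0.931) and then *ALOX5* (9.83 ± 0.270). The order of close members depended on the length taken. In both UGT2B17 populations *ALOX5* was the lowest of the 9 members (0.508 ± 0.122 in MEC1 and 0.187 ± 0.0228 in JVM2). With the longest transcript in place of all exon bases, *ALOX5* came before *PLA2G4A* in JVM2-CTRL, at 14.6 and 13.1 CPM per kilobase, and the level of *CYSLTR1* in MEC1-CTRL went from 5.79 to 10.6. With the canonical transcript, a length tried after the data had been seen, *LTA4H* came before *ALOX5AP* in MEC1-2B17, at 58.2 and 36.8 CPM per kilobase, and *ALOX5* was again second in JVM2-CTRL. By each of the 3 lengths *ALOX5* remained the lowest in both UGT2B17 populations.

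**Figure D3:**
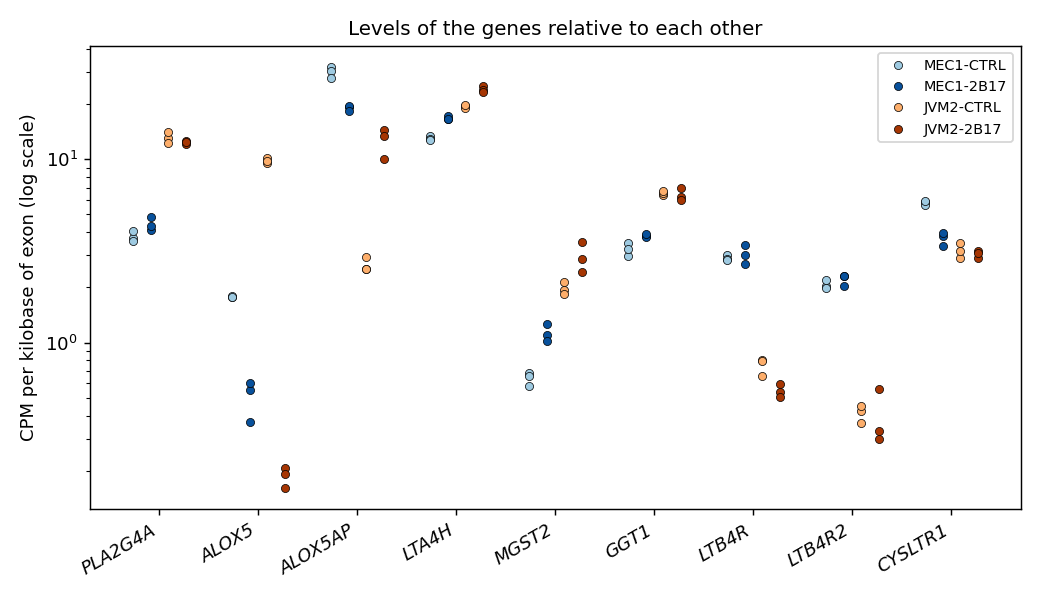
Level of the 9 members in CPM per kilobase of exon (log axis), with 1 point for each of the 3 libraries of the 4 populations. By exon length *ALOX5* is the third highest in JVM2-CTRL, with a mean of 9.83 (second by either transcript length), and the lowest in JVM2-2B17, with a mean of 0.187, while *LTA4H* is first in both JVM2 populations.

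The balance between 5-lipoxygenase and its partners followed from these levels. On the per-kilobase scale *ALOX5AP* was 15.7 to 17.9 times *ALOX5* in the MEC1-CTRL libraries and 30.6 to 52.5 times in MEC1-2B17. In JVM2 the ratio was turned around, from 0.249 to 0.300 in controls to 61.7 to 69.9 with UGT2B17. JVM2-CTRL was thus the only population with more *ALOX5* than *ALOX5AP* transcript, also by the longest and by the canonical transcript length.

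*LTA4H* was 7.23 to 7.47 times *ALOX5* in MEC1-CTRL and 27.7 to 46.6 times in MEC1-2B17, and 1.93 to 2.01 times in JVM2-CTRL and 121 to 148 times in JVM2-2B17. The size of this ratio depended on the length, with 4.51 to 4.69 in JVM2-CTRL by the canonical transcript. Both ratios were higher with UGT2B17 in every library of either line, and the *ALOX5* fall made up most of that change. In MEC1 the *ALOX5AP* ratio grew although *ALOX5AP* itself fell.

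**Figure D4:**
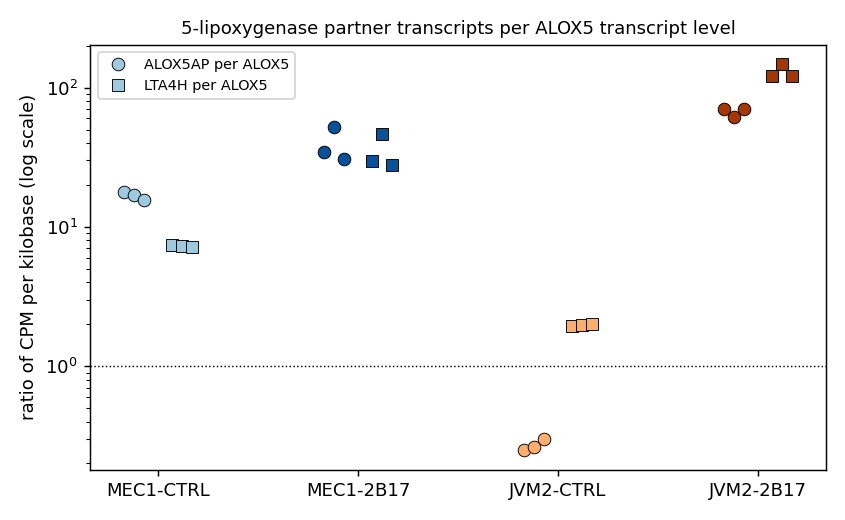
Ratio of *ALOX5AP* (circles) and of *LTA4H* (squares) to *ALOX5*, each in CPM per kilobase, on a log axis, with 1 point for each library of the 4 populations and a dotted line at 1. The JVM2-CTRL libraries are at 0.249 to 0.300 for *ALOX5AP*, under the line, and the JVM2-2B17 libraries at 61.7 to 69.9.

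Other genes of the leukotriene pathway, 17 in the list (transporters, further glutathione transferases and peptidases, inactivating enzymes and the remaining receptors), gave 4 tested in MEC1, of which 2 were higher and 1 lower, and 7 tested in JVM2, of which 1 was higher and 3 lower. Of all genes tested, for this and the lists that follow, 20.0% were higher and 21.6% lower in MEC1, and 14.1% and 15.3% in JVM2. With so few genes tested, these counts are descriptions. Their median log2 fold changes were 0.032 and -0.73, beside 0.0026 and 0.00012 over all genes. *MGST3*, a further microsomal glutathione transferase, rose in both lines, as *MGST2* did, by 0.50 ± 0.075 in MEC1 (adjusted *P* = 2.4e-05) and 0.38 ± 0.071 in JVM2 (0.0015) on the log2 scale. *CYSLTR2*, the other cysteinyl leukotriene receptor, fell in JVM2 from 92, 91 and 82 counts to 12, 15 and 14 (log2 fold change -2.61 ± 0.193, adjusted *P* = 7.9e-07). That SE is smaller than counting error allows on 12, 15 and 14 counts. In MEC1 *CYSLTR2* had 2 to 4 counts a library and was not tested.

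Both cytochromes of the list that were tested in JVM2 fell. *CYP4F3*, the leukotriene omega-hydroxylase of neutrophils, went from 54, 87 and 47 counts to 17, 17 and 23 (log2 fold change -1.64 ± 0.260, adjusted *P* = 4.9e-04), and its relative *CYP4F2* from 12, 12 and 18 counts to 7, 6 and 6 (-1.06 ± 0.355, adjusted *P* = 0.041). *CYP4F2* shares 17.6% of its 50-base words with *CYP4F3*, so their counts are not independent. Its call was the weakest of the list, on low counts and with an SE smaller than counting error allows. DESeq2 called 3 genes of the list in JVM2 against 4 in edgeR.

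Among 22 genes of arachidonate release and reacylation, 3 rose and 7 fell of 17 tested in MEC1, and 2 rose and 4 fell of 14 tested in JVM2 (all genes, 41.7% and 29.3% called in either direction), with medians of -0.0039 and -0.12 on the log2 scale. The desaturases that build arachidonic acid fell in both lines, *FADS1* by 0.47 and 0.28 and *FADS2* by 0.53 and 0.51 on the log2 scale (adjusted *P* at most 0.0052), and the study had picked them, like *ACSL4*, from these libraries. *ACSL4*, which activates arachidonic acid for storage in lipids, fell by 0.54 and 0.38, and *MGLL*, the lipase that yields arachidonic acid from monoacylglycerol, by 0.97 and 0.17 (adjusted *P* at most 0.040). *PLA2G16*, a phospholipase, rose by 0.69 in MEC1 and 0.25 in JVM2 (adjusted *P* = 0.0022 and 0.040). The JVM2 calls of *MGLL* and *PLA2G16* lay nearest the threshold, and DESeq2 called 4 genes of the list in JVM2 against 6 in edgeR.

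None of the 5 genes of the 12- and 15-lipoxygenases had enough counts to be tested in either line. Of the cyclooxygenase branch, 24 genes in the list, 2 rose and 3 fell of 11 tested in MEC1, and 0 rose and 2 fell of 10 tested in JVM2 (all genes, 41.7% and 29.3% called), with medians of -0.037 and -0.34. The JVM2 count was 4 without JVM2-2B17 replicate 3. *PTGER4*, a receptor for prostaglandin E2, went from 93, 79 and 96 counts in MEC1-CTRL to 8, 14 and 18 in MEC1-2B17 (log2 fold change -2.63 ± 0.230, adjusted *P* = 2.5e-08). That SE is smaller than counting error allows on 8, 14 and 18 counts. In JVM2 *PTGER4* held 23, 19 and 17 counts in controls and 31, 16 and 21 with UGT2B17, which overlapped (log2 fold change 0.27, 95% interval -0.28 to 0.82, adjusted *P* = 0.46). The lines differed by -2.89 ± 0.370 (adjusted *P* = 4.1e-06).

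The 10 genes listed as regulators of 5-lipoxygenase were all tested in both lines. In MEC1 1 rose and 6 fell (median -0.18 on the log2 scale), and in JVM2 4 rose and 1 fell (median 0.097), beside 41.7% and 29.3% of all genes called. The JVM2 count of 5 was 3 without JVM2-CTRL replicate 2 or 3. *CAMK2D*, a subunit of the kinase CaMKII, fell by 0.89 in MEC1 (adjusted *P* = 9.1e-13) and rose by 1.02 in JVM2 (1.1e-07), in log2 units, and *MAPK14*, the p38 kinase, fell by 0.15 and rose by 0.21 (adjusted *P* = 0.0017 and 0.023). The directions were those of *ALOX5AP* and not those of *ALOX5*. *GPX4*, a peroxidase that lowers the lipid hydroperoxides needed to activate 5-lipoxygenase, rose in both lines, by 0.13 and 0.25 (adjusted *P* = 0.012 and 0.0063).

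**Figure D5:**
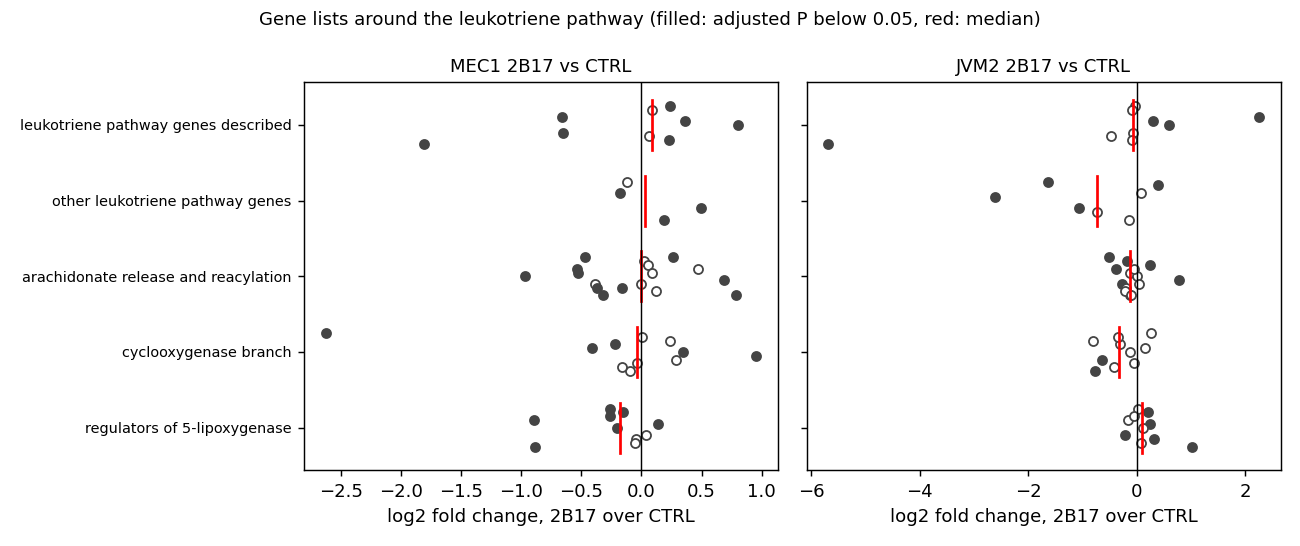
Log2 fold change of 2B17 over CTRL of each tested gene (points) in the members and the related lists, in MEC1 and JVM2, filled where the adjusted *P* was below 0.05, with the median of each list as a red line. The panels have different x ranges, and the *ALOX5* point of the members is at -1.81 in MEC1 and -5.68 in JVM2.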

How the data were processed

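The authors extracted total RNA, depleted ribosomal RNA, sequenced paired ends at several sites, trimmed reads with Trimmomatic and aligned them to hg38 with TopHat2 2.0.14 and counted them with HTSeq, per the labels. For each line they deposited raw counts per Ensembl gene in each library, and the lowest total of any listed gene was 10 over 6 libraries. The authors also deposited a normalized score per library (counts they normalized and rounded to whole numbers). The same tables hold the log2 fold change, log2 mean CPM, p-value and adjusted p-value that the authors computed with edgeR and DESeq2. None of these was used here.

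The counts of a line were fitted separately in edgeR 4.0.16 (R 4.3.3), with TMM factors, filterByExpr at its defaults (minimum count 10, minimum total 15), the quasi-likelihood F-test and Benjamini-Hochberg adjustment over all genes tested, with calls at 0.05. The standard error is the log2 fold change divided by the square root of F. At low counts it can be smaller than counting error alone allows. This was so for *ALOX5*, *CYSLTR2*, *CYP4F2*, *LTB4R* and *LTB4R2* in JVM2 and for *PTGER4* in MEC1. The difference between lines is the interaction of line and arm over the 12 libraries and the 16052 genes in both tables. CPM of the members used TMM factors over those 12 libraries, whereas the CPM of *UGT2B17* used those of its own line and that of markers library totals alone. CPM per kilobase used the exon union of GENCODE 44 on the same assembly (GRCh38), or as alternatives the longest or, chosen after seeing the data, the canonical transcript, read with Python 3.11.15. Libraries were mapped to populations by title, and no sample was left out. Pairs of replicates differed by 2.22 to 8.44 times the counting variance, as a mean chi-square per gene, with MEC1-CTRL replicate 3 (8.44 and 6.74, against 2.51 for the other pair) and JVM2-2B17 replicate 2 (8.23 and 8.39, against 2.22) standing apart.

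The members and lists were chosen with earlier results of these data known, and some overlap with genes the study selected from these libraries. Every member is named, and 1 cell type marker is not reported here. Of each list, genes past the threshold in both lines, or with an absolute log2 fold change of at least 1 in one, are named, as are the 3 genes most correlated with *ALOX5* (log2 CPM, prior count 2, average log2 CPM of at least 1 in each line). Alternatives were DESeq2 1.42.0, edgeR's exact test, both tools together, RLE or no scaling, no filter, 10 or more counts in each library, the replicate block and each library left out. The fits were tested on simulated data.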

Additional observations from a re-analysis of the deposited data

Results flagged for a closer look

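The change with UGT2B17 differed between the 2 lines for 4 members, by the interaction term of edgeR's quasi-likelihood fit, given here as the log2 fold change in MEC1 minus that in JVM2. For *ALOX5*, which fell in both lines, the difference was 3.89 (adjusted *P* = 8.7e-10), with all 3 UGT2B17 libraries below all 3 controls in each line. For *ALOX5AP*, which fell in MEC1 and rose in JVM2, it was -2.91 (adjusted *P* = 3.7e-11), again in 3 of 3 libraries of each line. For *CYSLTR1* it was -0.58 (adjusted *P* = 8.0e-04), with a fall in MEC1 and overlapping arms in JVM2. For *PLA2G4A* it was 0.32 (adjusted *P* = 0.027), and this was lost when any of 5 libraries was left out. The control of MEC1 was an shRNA line in puromycin and that of JVM2 an empty vector in blasticidin, so line and control construct cannot be told apart in these differences.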

How the results depend on the processing

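The signs and calls of *ALOX5*, *ALOX5AP* and *LTA4H* in each line, of *CYSLTR1* and *MGST2* in MEC1, and of the interaction for *ALOX5*, *ALOX5AP* and *CYSLTR1* were kept in every alternative that tested them. With at least 10 counts in every library, *ALOX5* was not tested in JVM2, which left 3 members called. DESeq2, alone or required beside edgeR, called 6 members in MEC1, without *PLA2G4A*. Leaving out 1 library gave 5 to 7 members called in MEC1, 3 to 4 in JVM2 and 3 to 5 for the interaction, where *GGT1* passed without MEC1-CTRL replicate 2 (adjusted *P* = 0.024) or JVM2-2B17 replicate 3 (0.026) and *LTB4R* without MEC1-2B17 replicate 1 (0.037). Signs turned only among values that were not called. Over the fits with 1 library left out, the log2 fold change ran from -0.016 to 0.15 for *LTB4R* in MEC1 and, in JVM2, from -0.13 to 0.00042 for *CYSLTR1*, from -0.10 to 0.013 for *GGT1* and from -0.39 to 0.10 for *LTB4R2*, while the *LTB4R2* difference between lines ran from -0.020 to 0.49. With the replicate block, 6897 genes passed in MEC1, 4236 in JVM2 and 5083 for the interaction, against 6909, 3821 and 4848, and no call of a member changed. After the mean of each arm was taken off, same-numbered libraries correlated at -0.042 to 0.040 in MEC1 and -0.0060 to 0.117 in JVM2. Libraries with different numbers correlated at -0.075 to 0.085 and -0.117 to 0.062, and so few values cannot settle a pairing. The numbers were not taken as a pairing because the study's methods name none. Calls in the lists moved by over 1.5 times for the cyclooxygenase branch in JVM2 (2 to 4, without the filter or without JVM2-2B17 replicate 3), the regulators in JVM2 (5 to 3, without JVM2-CTRL replicate 2 or 3) and, for the interaction, the other leukotriene genes (4 to 2) and the cyclooxygenase branch (5 to 3) with at least 10 counts in every library and arachidonate release (4 to 2) without MEC1-CTRL replicate 1, MEC1-2B17 replicate 3 or JVM2-CTRL replicate 2. The cause of these shifts was not tested. Counts of 5 to 36 for *ALOX5* in JVM2-2B17 and for *LTB4R* and *LTB4R2* in JVM2 limit precision there.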
